A study of Homo sapiens with 18 samples.

Results

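The response of A549 cells, a human lung adenocarcinoma line, to sodium propionate (SP, 5 mM) was compared between 24 h and 3 h of exposure by RNA-seq of 3 SP 24 h and 3 SP 3 h libraries, which are 6 of the 18 libraries of the series. A further 3 libraries from untreated cells of the same line, collected at 24 h (Control 24 h), gave the reference level for both times. A 3 h control was not analysed here, so a change between 3 h and 24 h that came with time in culture and one that came with SP cannot be told apart. The remaining 9 libraries, from a separate table of untreated cells at 3 days and cells exposed to 5 mM SP over 3 days or 12 days, were used to follow the same genes at later times. A549 cells are 1 tumour-derived line, and the replicate numbers in the labels do not say how the cultures were set up, so p-values measure the spread between these libraries.

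Propionate is a short-chain fatty acid that gut bacteria release when they ferment dietary fibre, and cells can use it as fuel through propionyl-CoA. Short-chain fatty acids also inhibit histone deacetylases, the enzymes that take acetyl groups off histone tails, and acetylated chromatin is in general more open to transcription. In responses to a lasting stimulus, early genes are those that existing factors can switch on or off at once, and some of them return to their starting level, while secondary genes start later and often need proteins made in the first wave. Lung adenocarcinoma cells are much studied for the epithelial-mesenchymal transition (EMT), in which ZEB factors lower E-cadherin (CDH1) and other epithelial genes.

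The SP 3 h libraries held 14187401 to 30553986 counted reads and the SP 24 h libraries 24831674 to 43765330, against 18568469 to 28773051 in Control 24 h. All 9 A549 and epithelial markers examined were present in every group, with summed levels of 21500 to 24800 counts normalised to library size (CPM) at 3 h and 25000 to 26100 CPM at 24 h. The immune markers PTPRC and CD3E and the fibroblast marker DCN were at 0 in all 9 libraries. Of 6 fibroblast markers 1, COL1A1, reached 1 CPM, and their summed level was 19.1 to 39 CPM at 3 h and 62.7 to 90.7 CPM at 24 h. The part of other cell types in the mesenchymal counts below was not tested. Libraries also differed in GC content. The mean GC content of the counted reads' genes was 48.68% to 49.99% at 3 h and 49.94% to 50.61% at 24 h, and its part in the results was not tested beyond the correction given below.

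Of 17377 genes with enough reads to be tested, 1312 were called between SP 24 h and SP 3 h, a call being an adjusted p under 0.05 with a change of at least 2-fold (edgeR quasi-likelihood test, Benjamini-Hochberg adjustment). Of these, 1089 were higher at 24 h, which is 6.27% of the genes tested, and 223 were lower, which is 1.28%. Higher genes thus made up 83.0% of the calls, and 71.5% (953 higher, 380 lower) when each library was first corrected for its trend with GC content and transcript length. The spread between replicates was wide, with a biological coefficient of variation of 0.199, and 5 genes passed the stricter adjusted p under 0.0001, all of them higher at 24 h.

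Those 5 genes were H19, FBXO2, CRABP2, PADI3 and SLC16A3. H19, an imprinted long noncoding RNA, stood at 0.353, 0.422 and 0.326 CPM at 3 h and at 23.1, 26.4 and 27.8 CPM at 24 h, a log2 change of 6.10 ± 0.19 (SE; adjusted p = 7.1e-07). Its control libraries held 0.371, 0.476 and 0.351 CPM, so the 3 h libraries lay within the control range or just below it. FBXO2, which encodes a ubiquitin ligase subunit that binds glycoproteins, had a log2 change of 2.77 ± 0.13 (adjusted p = 1.4e-05). CRABP2, a carrier of retinoic acid, had one of 2.76 ± 0.14 (adjusted p = 2.4e-05) and PADI3, a peptidylarginine deiminase of hair and skin, one of 2.15 ± 0.11 (adjusted p = 2.4e-05). SLC16A3, a transporter that moves lactate and other monocarboxylates across the plasma membrane, stood at 107, 119 and 91.2 CPM at 3 h and at 466, 453 and 462 CPM at 24 h (log2 change 2.12 ± 0.13, adjusted p = 6.4e-05).

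The called genes were then sorted by their distance from Control 24 h at each time. A transient gene was called against the control at 3 h, was called back towards it at 24 h and ended within 1.5-fold of it. A secondary gene was within 1.5-fold of the control and not called at 3 h, and was called at 24 h against both SP 3 h and the control. By these cuts 35 genes rose transiently, 40 fell transiently, 513 rose secondarily and 90 fell secondarily. A further 96 genes were progressive, called higher than the control at 3 h and higher again at 24 h, and 1 gene fell progressively. The classes were cut from these same 9 libraries, and the SP 3 h libraries enter both differences that define a transient gene, so the class counts and medians are descriptions without a test. Another 529 called genes belonged to none of the classes, and of these 181 higher and 78 lower genes were called against the control at neither time. Among transient rises the last gene inside, CD27-AS1, was 0.585 above the control at 24 h on the log2 scale and the first outside, MYBL1, was 0.633 below it. In all, 8 genes met the other cuts of this class but lay outside the limit, at any distance. Among secondary rises, TM6SF1 was inside at 0.584 above the control at 3 h and CCM2L was outside at 0.586. Here 248 genes met the other cuts but lay outside the limit, some of them far from it, and a 2-fold limit would give 664 secondary rises.

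**Figure D1:**
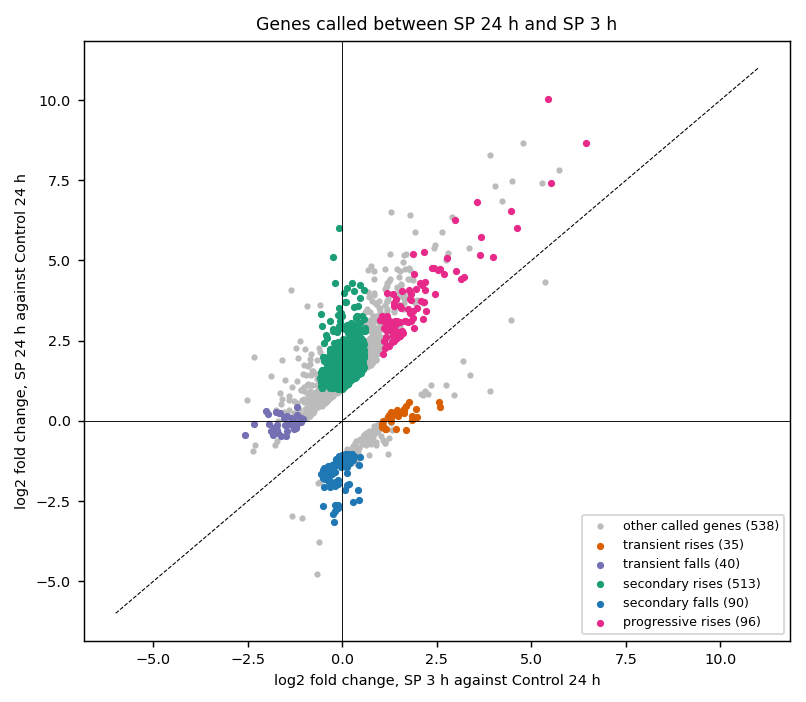
Log2 fold change of each gene called between SP 24 h and SP 3 h, with SP 3 h against Control 24 h on the x axis and SP 24 h against Control 24 h on the y axis; colours mark the classes and the dashed line marks equal changes. The 513 secondary rises form a column above 0 on the x axis, the 35 transient rises lie along the x axis to the right, and the 96 progressive rises lie above the dashed line; both axes use the same 3 control libraries.

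Most genes that had moved by 3 h were not called between 3 h and 24 h. Of all tested genes, 6.27% were called higher at 24 h than at 3 h and 1.28% lower. Of the 635 genes called higher than the control at 3 h, 490 (77.2%) were not called between the SP times. A further 96 (15.1%) were called higher again, and 49 (7.72%) were called lower, of which 35 met the transient cut. An adjusted p of 0.05 or more was found for 393 (61.9%) of the 635, so some genes not called had changed by less than 2-fold. Of the 168 genes called lower at 3 h, 116 (69.0%) were not called between the SP times, 51 (30.4%) were called higher, of which 40 met the transient cut, and 1 was called lower again.

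The promoters of the 3 leading transient rises and the 3 leading secondary rises with an entry in the RefSeq table (GRCh38.p14) are shown to let the start sites of the early and the late genes be set side by side. Each is 300 bases on the gene's own strand, 250 before the start site and 50 after it. Capitals mark every match, on either strand, to TATAAA (the TATA box), TGACTCA (the AP-1 element), TGACGTCA (the cAMP response element), CACGTG (an E-box), CCAAT (the CCAAT box), GGGCGG (the GC box) or TTCCGG (an ETS core).
DPF3 (chr14:72894052-72894351, minus strand): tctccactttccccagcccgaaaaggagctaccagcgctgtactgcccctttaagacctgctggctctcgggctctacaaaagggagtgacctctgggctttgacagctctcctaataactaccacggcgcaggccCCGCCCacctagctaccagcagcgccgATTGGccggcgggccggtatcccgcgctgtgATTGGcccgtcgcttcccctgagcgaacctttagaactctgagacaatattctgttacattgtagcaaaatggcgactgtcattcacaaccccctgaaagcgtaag
MXD1 (chr2:69914859-69915158, plus strand): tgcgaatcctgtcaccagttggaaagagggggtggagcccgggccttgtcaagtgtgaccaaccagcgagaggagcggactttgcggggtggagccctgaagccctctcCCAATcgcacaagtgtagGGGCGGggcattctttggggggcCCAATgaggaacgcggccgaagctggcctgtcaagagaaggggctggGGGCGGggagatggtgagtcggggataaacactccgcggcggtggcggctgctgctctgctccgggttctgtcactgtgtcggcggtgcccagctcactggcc
TUFT1 (chr1:151540059-151540358, plus strand): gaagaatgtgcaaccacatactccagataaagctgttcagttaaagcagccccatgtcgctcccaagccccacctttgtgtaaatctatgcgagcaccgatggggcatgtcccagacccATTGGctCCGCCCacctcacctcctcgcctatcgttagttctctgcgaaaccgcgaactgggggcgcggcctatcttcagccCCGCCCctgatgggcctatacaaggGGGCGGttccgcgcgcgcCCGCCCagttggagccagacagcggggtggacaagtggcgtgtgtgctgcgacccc
KRTAP3-1 (chr17:41009079-41009378, minus strand): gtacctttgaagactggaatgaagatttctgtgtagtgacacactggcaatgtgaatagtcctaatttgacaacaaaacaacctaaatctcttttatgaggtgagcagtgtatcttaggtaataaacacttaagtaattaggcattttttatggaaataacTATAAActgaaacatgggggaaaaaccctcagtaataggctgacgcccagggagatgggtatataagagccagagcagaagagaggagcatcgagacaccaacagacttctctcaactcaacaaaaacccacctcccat
KRT20 (chr17:40885193-40885492, minus strand): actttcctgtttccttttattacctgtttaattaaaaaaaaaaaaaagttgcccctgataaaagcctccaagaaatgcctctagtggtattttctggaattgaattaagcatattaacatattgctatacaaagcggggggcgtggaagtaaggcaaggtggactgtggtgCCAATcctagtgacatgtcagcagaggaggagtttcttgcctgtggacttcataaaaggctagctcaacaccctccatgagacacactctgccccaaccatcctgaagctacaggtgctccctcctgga
BST2 (chr19:17405581-17405880, minus strand): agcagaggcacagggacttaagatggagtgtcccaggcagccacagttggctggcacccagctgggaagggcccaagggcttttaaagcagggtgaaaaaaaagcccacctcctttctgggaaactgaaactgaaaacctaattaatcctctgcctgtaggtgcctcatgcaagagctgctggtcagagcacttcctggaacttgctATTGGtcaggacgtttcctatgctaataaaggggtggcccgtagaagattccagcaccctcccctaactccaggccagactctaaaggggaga

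The transient rises DPF3, MXD1 and TUFT1 each held a CCAAT box and a GC box in this window, and TUFT1 held 4 GC boxes. The secondary rises held no GC box. KRTAP3-1 held an exact match to TATAAA 89 bases before the start, and KRT20 and BST2 each held a CCAAT box, 79 and 43 bases before it. A TATA-like stretch of KRTAP3-1 nearer the start (tatataag) is not an exact match and was not marked. The RefSeq starts of MXD1 and KRTAP3-1 lie inside the longer genes of the annotation used for positions. Among all 35116 promoters of the table, 45.0% held a GC box, 34.6% a CCAAT box and 11.5% a TATA box. These 6 promoters did not stand for their classes. A promoter was found for 20 of the 35 transient rises, of which 75% held a GC box, 50% a CCAAT box and 20% an E-box, and for 317 of the 513 secondary rises, where the shares were 62.8%, 31.5% and 8.20%. Among the 11942 tested genes with a promoter, 69.1% held a GC box, 36.0% a CCAAT box and 9.81% an E-box. The 61 progressive rises with a promoter held a GC box in 85.2% and had a median promoter GC content of 69.7%, against 65.3% for the tested genes. A match is a string of letters in this window and not evidence of a bound factor.

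Transient rises were led by DPF3, MXD1, TUFT1, NFKBIE, SGTB and DNAJC6. DPF3 (ENSG00000205683, chr14:72609034-72894101), a subunit of BAF chromatin remodelling complexes that reads acetylated histones, stood at 0.847, 0.264 and 0.771 CPM in the controls, at 3.46, 3.63 and 4.2 CPM at 3 h, and at 1.21, 0.716 and 1.01 CPM at 24 h. The 3 h libraries lay above all others, and the 24 h libraries overlapped the controls. The fall from 3 h to 24 h was 3.91-fold (log2 change -1.97 ± 0.31, adjusted p = 0.0031). MXD1, which pairs with MAX and opposes MYC, stood at 14.9, 17.5 and 18.1 CPM at 3 h and at 3.24, 5.86 and 3.95 CPM at 24 h, around the control values of 4.98, 5.39 and 5.50 CPM (log2 change -1.94 ± 0.21, adjusted p = 7.1e-04). Its neighbour SNRNP27 overlaps it by 237 bases, and the strand setting of the counting is not given in the sources used here. TUFT1, which encodes tuftelin, a protein first known from enamel, stood at 154, 170 and 168 CPM at 3 h and at 37.5, 46.0 and 52.9 CPM at 24 h, within the control range of 36.5 to 50.7 CPM but for 1 library (log2 change -1.85 ± 0.16, adjusted p = 3.9e-04).

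NFKBIE encodes an inhibitor that holds NF-kB in the cytoplasm and is itself an NF-kB target. Its level was 36.8, 32.8 and 43.0 CPM at 3 h and 11.9, 10.0 and 13.6 CPM at 24 h, with controls at 14.8, 11.3 and 15.8 CPM (log2 change -1.66 ± 0.18, adjusted p = 6.5e-04). SGTB, a co-chaperone, fell from 61.6 ± 14.8 CPM (SD, n = 3) at 3 h to 23.5 ± 4.59 CPM at 24 h (log2 change -1.39 ± 0.30, adjusted p = 0.014). Its call was lost without SP 24 h replicate 2 (adjusted p = 0.059) or without SP 24 h replicate 3 (adjusted p = 0.057). DNAJC6, the clathrin-uncoating chaperone auxilin, was the tightest of the 6, at 23.2, 26.1 and 24.3 CPM at 3 h and 9.99, 9.31 and 9.05 CPM at 24 h (log2 change -1.38 ± 0.11, adjusted p = 2.7e-04). Other transient rises with known roles were TNFAIP3, which ends NF-kB signalling (9.92 ± 1.85 CPM at 3 h, 4.18 ± 0.647 CPM at 24 h), CDKN2D, an inhibitor of cyclin-dependent kinases (17.1 ± 1.95 against 7.16 ± 0.851 CPM), and CCN1, a secreted matrix protein of the immediate early group (126 ± 7.17 against 55.1 ± 9.24 CPM). CCN1 lost its call without SP 24 h replicate 2 (adjusted p = 0.057). HSPA1B, an inducible heat shock protein, was also in the class, but it shares near-identical sequence with HSPA1A and lost its call in 6 of the 9 fits that left out 1 library, namely Control 24 h replicate 2, SP 3 h replicate 2 or 3, or SP 24 h replicate 1, 2 or 3.

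Transient falls were led by PRDM10, RFX1, EHF, NRDE2, PRDM15 and LIF. PRDM10 (ENSG00000170325, chr11:129899706-130002835), a zinc finger transcription factor, stood at 10.6, 13.1 and 13.6 CPM in the controls, 2.33, 2.85 and 2.12 CPM at 3 h and 11.1, 12.2 and 11.3 CPM at 24 h. The 3 h libraries lay far below the other 6, and the 24 h libraries lay inside the control range. The rise from 3 h to 24 h was 4.71-fold (log2 change 2.24 ± 0.16, adjusted p = 1.9e-04). PRDM15, of the same family, went from 5.79, 4.70 and 3.26 CPM at 3 h to 12.9, 12.2 and 12.0 CPM at 24 h (log2 change 1.45 ± 0.20, adjusted p = 0.0019). RFX1, a winged-helix factor, stood at 5.08, 6.10 and 2 CPM at 3 h and 16.5, 17.7 and 16.0 CPM at 24 h, but its controls spread from 7.52 to 22.2 CPM. RFX1 lost its call without SP 24 h replicate 2 (adjusted p = 0.058) and, with an adjusted p of 0.0502, without SP 3 h replicate 1. EHF, an ETS factor of epithelia, stood at 6.63, 7.59 and 7.46 CPM at 3 h and 28.0, 21.5 and 16.8 CPM at 24 h (log2 change 1.61 ± 0.35, adjusted p = 0.014), and lost its call without SP 3 h replicate 1 (adjusted p = 0.052). Gene symbols starting with ZNF made up 5 of the 40 transient falls (12.5%), against 2.57% of all tested genes and 0 of the 35 transient rises. WT1, a zinc finger factor of kidney and mesothelium that was chosen after its values were seen, went from 1.76, 1.82 and 1.79 CPM at 3 h to 5.02, 3.51 and 3.38 CPM at 24 h.

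LIF, a cytokine of the interleukin-6 family, stood at 39.9, 31.6 and 27.9 CPM at 3 h and 98.8, 64.1 and 96.2 CPM at 24 h, with controls at 84.9, 82.4 and 117 CPM (log2 change 1.38 ± 0.21, adjusted p = 0.0027). NRDE2, a nuclear factor of RNA surveillance, went from 8.11, 6.49 and 4.61 CPM to 21.6, 17.2 and 17.8 CPM (log2 change 1.57 ± 0.21, adjusted p = 0.0016), but 4667 bases of its exons overlap PSMC1. THBD, the endothelial anticoagulant receptor thrombomodulin, also chosen after its values were seen, went from 20, 23.2 and 16.3 CPM to 61.3, 44.4 and 49.0 CPM.

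**Figure D2:**
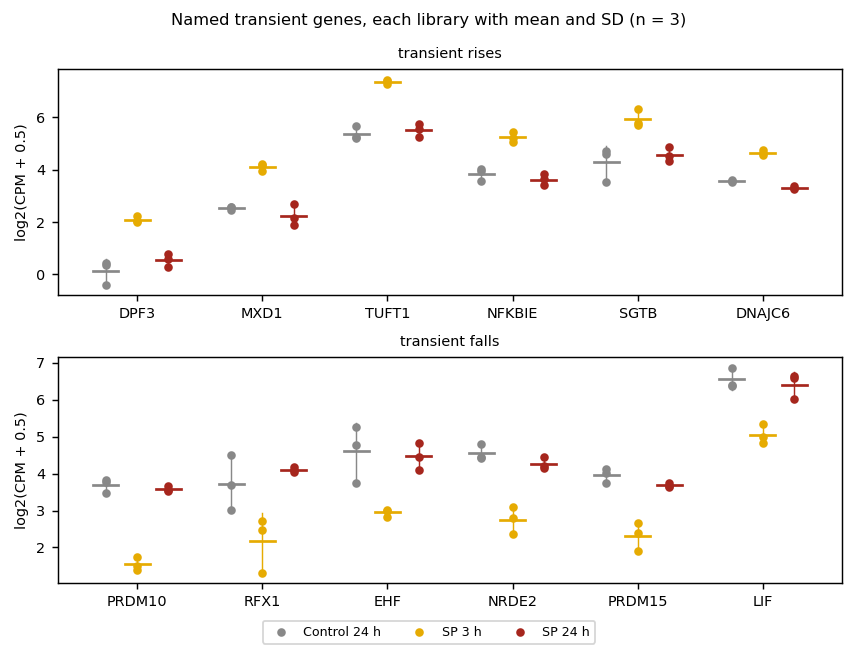
Log2(CPM + 0.5) of the 6 leading transient rises and the 6 leading transient falls in Control 24 h, SP 3 h and SP 24 h; points are libraries, horizontal bars the mean and vertical lines the SD (n = 3). In every gene the 3 SP 3 h points stand apart from the 3 SP 24 h points, which sit beside the control points. Both were set in advance, by the rule for naming genes and by the class cut.

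Some early genes came back part of the way. The 5 genes called above the control at both times and lower at 24 h than at 3 h were DACT3, FOSB, NIM1K, NR4A3 and SMIM10L2B, named after their values were seen because the count is small. DACT3, an antagonist of Wnt signalling, stood at 0.265, 0.211 and 0.456 CPM in the controls, at 9.66, 19.6 and 11 CPM at 3 h and at 4.94, 7.23 and 7.73 CPM at 24 h. FOSB, an AP-1 subunit, stood at 2.68, 3.11 and 1.87 CPM at 3 h and at 0.890, 1.21 and 0.946 CPM at 24 h, and NR4A3, an orphan nuclear receptor of the early response, at 4.87, 6.23 and 4.77 CPM and at 1.94, 2.19 and 2.57 CPM. DACT3 and FOSB each lost the call in 5 of the 9 fits that left out 1 library (any SP 24 h replicate, SP 3 h replicate 2, and SP 3 h replicate 3 for DACT3 or 1 for FOSB), with adjusted p up to 0.11 and 0.13, and NR4A3 lost it without SP 24 h replicate 1 or 2. A further 3 genes crossed the control level. CXCR4, a chemokine receptor, stood at 3.95, 4.77 and 4.85 CPM at 3 h and at 0.607, 1.19 and 1.05 CPM at 24 h, above and then below the control values of 2.22, 2.27 and 1.51 CPM. FAM83A and the pseudogene IGFL1P1 crossed in the other direction, FAM83A from 0.141, 0.0649 and 0.0408 CPM to 1.38, 1.88 and 1.35 CPM around controls of 0.371, 0.370 and 0.421 CPM.

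Secondary rises were the largest class, and many were genes of low level in Control 24 h, as in the other rising genes. Their median level in Control 24 h was 1.13 CPM, and 415 of the 513 were protein-coding. In Control 24 h 47.0% of them lay under 1 CPM, against 20% of all tested genes. The share was 52.4% for all genes called higher at 24 h and 62.5% for progressive rises. The filter kept only genes with enough reads in a group's worth of libraries, so some of these genes passed it through their 24 h level. Over the class, the median log2 difference from the control mean (CPM + 0.5) was 0.065, 0.198 and -0.06 in the 3 h libraries and 1.23, 1.37 and 1.32 in the 24 h libraries. The median GC content of secondary rises was 56.2%, against 48.6% for all tested genes and 56.5% for all genes called higher at 24 h. With the GC and length correction 350 of the 513 stayed in the class.

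KRTAP3-1 (ENSG00000212901, chr17:41008521-41019324), a keratin-associated protein of hair, had 0, 6 and 4 reads in the controls, 1, 8 and 0 reads at 3 h, and 167, 272 and 98 reads at 24 h. Its level of 6.76, 6.09 and 3.31 CPM at 24 h lay far above the other 6 libraries (log2 change from 3 h 5.36 ± 0.68, adjusted p = 0.0014). KRT20 (ENSG00000171431, chr17:40875889-40885242), a keratin of gut and urothelial lining, stood at 0.705, 0.908 and 0.204 CPM at 3 h and at 9.95, 21.8 and 10.1 CPM at 24 h, with controls at 0.847, 1.00 and 0.351 CPM. Its rise was 22.8-fold (log2 change 4.51 ± 0.54, adjusted p = 0.0012). BST2, the interferon-induced protein tetherin, had 0, 9 and 0 reads at 3 h and 44, 105 and 69 at 24 h (log2 change 4.06 ± 0.62, adjusted p = 0.0027). COL8A2, a chain of type VIII collagen, had 0, 6 and 4 reads at 3 h and 50, 102 and 72 at 24 h (log2 change 3.95 ± 0.42, adjusted p = 6.9e-04). ALPL, tissue-nonspecific alkaline phosphatase, had 10, 5 and 2 reads at 3 h and 89, 144 and 107 at 24 h (log2 change 3.73 ± 0.50, adjusted p = 0.0016). TMEM59L, a membrane protein, went from 1.31 ± 0.546 CPM to 17.1 ± 3.31 CPM (log2 change 3.64 ± 0.39, adjusted p = 7.1e-04). For the lowest of these genes the size of the change rests on a few reads at 3 h, whereas no gene called higher at 24 h was at 0 in all 3 of the 3 h libraries.

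Secondary falls had a median control level of 6.76 CPM. CLTRN, the membrane protein collectrin, stood at 3.07, 2.48 and 2.52 CPM in the controls, 2.4, 1.82 and 2.57 CPM at 3 h and 0.121, 0.425 and 0.473 CPM at 24 h (log2 change -2.64 ± 0.35, adjusted p = 0.0015). EFCAB2, a calcium-binding protein, went from 4.73, 4.93 and 5.58 CPM at 3 h to 0.809, 1.03 and 0.608 CPM at 24 h (log2 change -2.61 ± 0.22, adjusted p = 3.6e-04), with 815 bases of exon shared with another annotated gene. In each of these genes the 24 h libraries lay below all the others, but genes were named only where the SP groups did not overlap. SLC17A3, an organic anion transporter, went from 2.39 ± 0.625 to 0.388 ± 0.145 CPM and TNFAIP6, a hyaluronan-binding protein made in inflammation, from 2.12 ± 0.898 to 0.355 ± 0.106 CPM. CYP7B1, an oxysterol hydroxylase, and NKAIN3, which binds a subunit of the sodium pump, varied more between replicates. CYP7B1 stood at 2.68, 1.2 and 3.83 CPM at 3 h and 0.931, 0.358 and 0.203 CPM at 24 h, and lost its call without SP 3 h replicate 1 or 3 or SP 24 h replicate 2 or 3, with adjusted p up to 0.11. NKAIN3 lost its call without SP 3 h replicate 3 (adjusted p = 0.068) and without SP 24 h replicate 2 or 3 (adjusted p = 0.071 in each). The median GC content of the 90 secondary falls was 44.4%, below that of all tested genes and near the 44.3% of all genes called lower at 24 h.

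The 96 progressive rises had a median control level of 0.668 CPM. Their median GC content was 61.1%, against 56.5% for all genes called higher at 24 h, and 90 were protein-coding. On chromosome 19 lay 24.0% of them, against 11.3% of secondary rises, 12.9% of all genes called higher at 24 h and 6.84% of all tested genes. SCUBE1 (ENSG00000159307, chr22:43197280-43343372), a secreted protein with EGF-like and CUB domains, had 0 reads in all 3 controls, 3, 5 and 6 reads at 3 h and 80, 277 and 165 reads at 24 h, so its 24 h level was at least 35.6-fold higher than the level that 3 reads per control library would give. Between the SP times it rose 24.3-fold (log2 change 4.61 ± 0.38, adjusted p = 6.0e-04). SPINT1, an inhibitor of the proteases that activate hepatocyte growth factor, went from 0.847, 1.52 and 0.815 CPM to 9.31, 13.8 and 10.5 CPM. NRXN2, a presynaptic adhesion protein, went from 0.397 ± 0.163 to 3.67 ± 0.370 CPM. STAC2, an adaptor of calcium channels, went from 0.917, 3.08 and 1.18 CPM to 12.3, 23.2 and 17.3 CPM. NES, the intermediate filament protein nestin, stood at 4.29, 6.61 and 7.92 CPM in the controls, 12.2, 19.1 and 11.4 CPM at 3 h and 87.2, 106 and 105 CPM at 24 h (log2 change between the SP times 2.80 ± 0.26, adjusted p = 4.0e-04). The 3 groups did not overlap in any of these genes, which were named only where the SP groups stood apart. Of all tested genes, 44.9% had no overlap between the SP groups. The class had 1 member in the other direction, BAAT, which conjugates bile acids and fell from 28.3, 31.9 and 23.1 CPM in the controls to 11.6, 12.9 and 15.0 CPM at 3 h and 3.20, 3.58 and 3.48 CPM at 24 h.

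**Figure D3:**
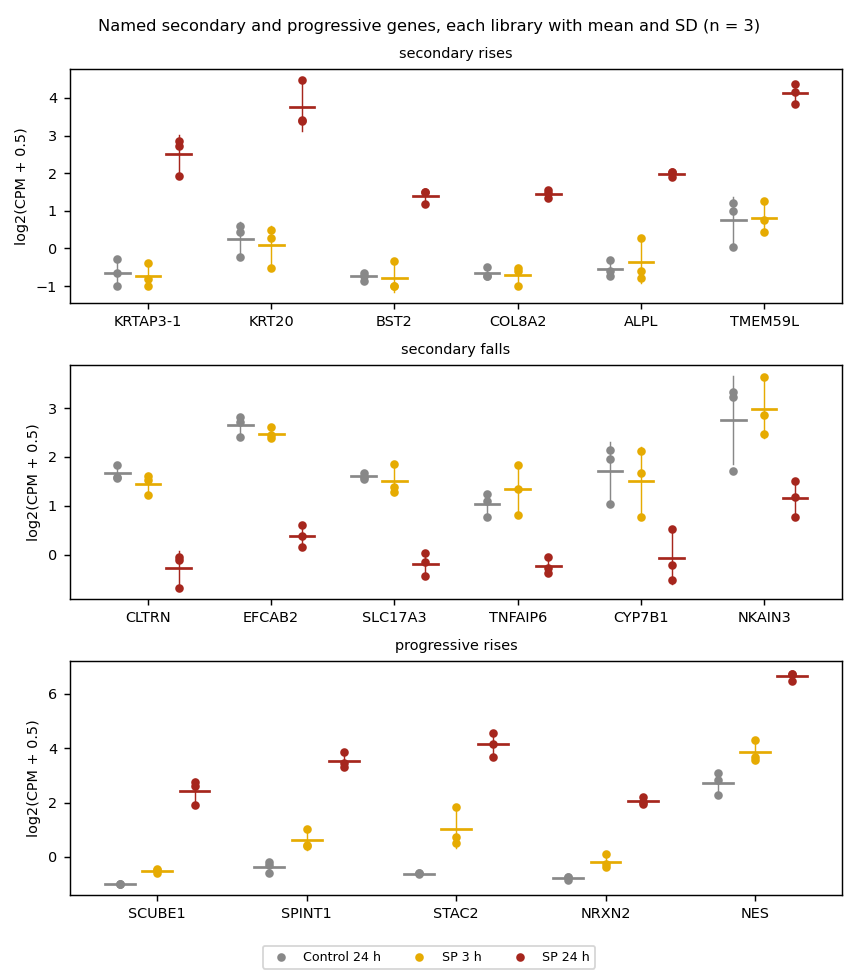
Log2(CPM + 0.5) of the 6 leading secondary rises, the 6 leading secondary falls and 5 leading progressive rises in Control 24 h, SP 3 h and SP 24 h; points are libraries, horizontal bars the mean and vertical lines the SD (n = 3). In the upper panels the SP 3 h points sit beside the control points and the SP 24 h points stand apart. In the lowest panel SP 3 h lies between the other groups. These positions follow from the class cuts and from the rule for naming genes.

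Of the epithelial genes the study followed, EPCAM and KRT19 rose after 3 h. EPCAM, an adhesion molecule of epithelia, stood at 6.41, 6.08 and 5.75 CPM in the controls, 5.57, 6.13 and 5.58 CPM at 3 h and 17.0, 15.5 and 16.8 CPM at 24 h, a secondary rise (log2 change between the SP times 1.51 ± 0.12, adjusted p = 2.7e-04). KRT19, a keratin of simple epithelia, was also a secondary rise, at 369, 382 and 338 CPM at 3 h and 966, 952 and 798 CPM at 24 h (log2 change 1.32 ± 0.12, adjusted p = 4.0e-04), and fell just under 2-fold with the GC and length correction (0.99). CDH1 stood at 48.8, 82.3 and 34.8 CPM at 3 h and 149, 183 and 155 CPM at 24 h (log2 change 1.55 ± 0.36, adjusted p = 0.018). It was outside the secondary class because its 3 h level lay 0.67 above the control on the log2 scale, with controls at 19.4, 46.5 and 38.1 CPM, and its call was lost without SP 3 h replicate 1 or 3 or SP 24 h replicate 2, with adjusted p of 0.062 to 0.065. KRT18, the partner of KRT8 in simple epithelia, rose by less than 2-fold (log2 change 0.73 ± 0.12, adjusted p = 0.0034). For the tight junction scaffold TJP1 the log2 difference was -0.10 ± 0.14 (adjusted p = 0.62).

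Of the regulators of the epithelial state, GRHL1 and OVOL2 were both called above the control at 3 h and at 24 h. GRHL1, a grainyhead factor that promotes epithelial genes, stood at 1.27, 1.27 and 1.26 CPM in the controls, 7.27, 6.32 and 6.81 CPM at 3 h and 3.48, 3.63 and 4.02 CPM at 24 h, so that it was lower at 24 h than at 3 h by less than 2-fold (log2 change -0.87 ± 0.14, adjusted p = 0.0032) and above the control at both times. OVOL2, a zinc finger repressor of ZEB1, was at 0.153 ± 0.106 CPM in the controls, 0.712 ± 0.313 CPM at 3 h (adjusted p = 0.018 against the control) and 1.06 ± 0.114 CPM at 24 h, with no called difference between the SP times (log2 change 0.51 ± 0.36, adjusted p = 0.34). ZEB2 was a secondary fall, from 7.55, 4.96 and 6.44 CPM to 3.40, 2.35 and 2.7 CPM (log2 change -1.16 ± 0.28, adjusted p = 0.018), but the call was lost without SP 3 h replicate 1 or 3 or SP 24 h replicate 2 or 3, and 1299 bases of its exons overlap ZEB2-AS1. ZEB1 varied too much between replicates to be called, at 16.1, 9.31 and 35.2 CPM at 3 h and 14, 5.71 and 6.01 CPM at 24 h (adjusted p = 0.22).

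Other genes of interest to the study spread over the patterns. ESPN, an actin-bundling protein of microvilli, went from 6, 10 and 4 reads at 3 h to 79, 408 and 181 reads at 24 h (log2 change 4.40 ± 0.48, adjusted p = 7.8e-04), with 1 read in all controls together. GPR4, a proton-sensing receptor, was at 0 reads in the controls, 1, 20 and 9 reads at 3 h and 28, 105 and 68 reads at 24 h (log2 change between the SP times 2.24 ± 0.52, adjusted p = 0.023), and lost its call without SP 3 h replicate 3 or SP 24 h replicate 2 or 3. ICAM1, an adhesion molecule for leukocytes, went from 2.47, 0.973 and 1.26 CPM to 3.36, 3.07 and 4.53 CPM (adjusted p = 0.023), a call lost without SP 3 h replicate 2 or 3 or SP 24 h replicate 3. NNMT, nicotinamide N-methyltransferase, fell in steps from 79.8, 73.1 and 67.0 CPM in the controls to 31.6, 32.9 and 41.3 CPM at 3 h and 18.3, 17.5 and 18.6 CPM at 24 h, the second step being just under 2-fold (log2 change -0.96 ± 0.13, adjusted p = 0.0016). ALDH3A1, an aldehyde dehydrogenase, was lower by a like amount (-0.96 ± 0.19, adjusted p = 0.0089), and ALDH1A1 by -0.43 ± 0.11 (adjusted p = 0.027). The subunits of propionyl-CoA carboxylase, the enzyme that takes propionate into the citric acid cycle, showed no called difference, with log2 values of -0.10 ± 0.15 for PCCA (adjusted p = 0.68) and -0.02 ± 0.10 for PCCB (adjusted p = 0.90).

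The 40 gene lists were drawn up with earlier results of these data known, so their shares are descriptions without a test. They were read against the shares of all tested genes called, given above for the 2-fold call. At any fold, 11.7% of all tested genes passed the adjusted p as higher at 24 h and 8.40% as lower. Of 33 tested genes of epithelial junctions, 7 were called higher and 0 lower, and 5 and 0 with the GC and length correction. The largest changes were in CLDN7 (0.341 ± 0.230 CPM at 3 h, 3.45 ± 0.659 CPM at 24 h), CDH3, TJP3, CDH1 and EPCAM. TJP3 lost its call in 5 of the 9 fits that left out 1 library and with the GC and length correction. Of 10 keratin genes, 2 were called higher, KRT20 and KRT19, and 6 passed the adjusted p as higher at any fold. With the GC and length correction 1 keratin gene was called higher and 1 lower. Of 19 epithelial genes of the pan-cancer EMT signature 4 were called higher and 0 lower, among them CLDN4 (18.4 ± 3.91 against 43.4 ± 9.44 CPM). The count of higher calls was 2 without SP 3 h replicate 1 or 3 or SP 24 h replicate 2, and 2 with the GC and length correction.

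Mesenchymal genes of the same signature moved in both directions. Of 40 tested, 10 were called higher and 4 lower, and with any of 9 libraries left out the counts ranged from 6 to 12 higher and from 0 to 4 lower. SPARC, a matrix glycoprotein, went from 5.79, 7.98 and 7.38 CPM to 21.4, 32.0 and 45.6 CPM (log2 change 2.22 ± 0.33, adjusted p = 0.0026), and NID2, a basement membrane protein, from 6.63, 7.17 and 4.40 CPM to 21.9, 24.9 and 27.0 CPM (log2 change 2.02 ± 0.32, adjusted p = 0.0031). Of 17 EMT transcription factors, 0 were called higher and 1, ZEB2, was called lower.

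Neuronal and synaptic genes had the largest share of calls among the lists with 9 or more tested genes. Of 38 listed genes 29 were tested, and genes low in the control could pass the read filter through their SP level. Of these 29, 13 were called higher and 1 lower, the median log2 change was 1.05, and 11 higher and 2 lower were called with the GC and length correction. Of the 3468 tested genes under 1 CPM in Control 24 h, 571 were called higher at 24 h. SNCB, which encodes beta-synuclein, went from 0.988, 1.23 and 0.937 CPM to 5.54, 8.15 and 7.90 CPM (log2 change 2.76 ± 0.22, adjusted p = 2.7e-04). SYT7, a calcium sensor of vesicle fusion, went from 3.46, 4.12 and 2.69 CPM to 15.5, 19.6 and 16.2 CPM (log2 change 2.32 ± 0.23, adjusted p = 4.9e-04). NGFR, the low-affinity neurotrophin receptor, was progressive, at 0.199 ± 0.0567 CPM in the controls, 4.36 ± 1.78 CPM at 3 h and 18.5 ± 7.83 CPM at 24 h. The median GC content of the list was 57.8%.

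Genes known from earlier work to answer histone deacetylase inhibitors were called higher in 6 of 24 cases and lower in 0. With the GC and length correction 4 were called higher and 1 lower. DHRS2, a short-chain dehydrogenase, went from 5.57, 10.5 and 7.87 CPM at 3 h to 57.1, 132 and 103 CPM at 24 h (log2 change 3.59 ± 0.38, adjusted p = 8.1e-04). CPA4, a carboxypeptidase, was a secondary rise (10.1 ± 1.44 against 35.9 ± 6.71 CPM), whereas NEFL, the neurofilament light chain, was progressive (1.87 ± 0.254, 4.52 ± 0.212 and 13.3 ± 1.27 CPM in the controls, at 3 h and at 24 h). Of the 28 tested histone deacetylase and acetyltransferase genes themselves, 0 were called in either direction by edgeR or DESeq2. An unadjusted p under 0.05 (edgeR) was found for 7 as higher and 4 as lower, and for 5996 of all 17377 tested genes in either direction.

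Of 39 immediate early and AP-1 genes, 1 was called higher, KLF2, and 3 lower, FOSB, NR4A3 and CCN1, while 4 passed the adjusted p as higher and 10 as lower. With the GC and length correction KLF2 lost its call, leaving 0 higher and 4 lower, and without single libraries the lower calls ranged from 0 (without SP 24 h replicate 2) to 3, with 1 without SP 24 h replicate 1. Of 22 NF-kB response and cytokine genes, 2 were called higher, LIF and ICAM1, and 2 lower, TNFAIP3 and TNFAIP8. Of 17 circadian clock genes, PER3 and CRY1 were called lower and 0 higher. CRY1, a repressor of the clock, stood at 33.4, 34.0 and 35.9 CPM in the controls, 48.5, 55.9 and 54.4 CPM at 3 h and 21.3, 18.1 and 23.7 CPM at 24 h (log2 change -1.33 ± 0.12, adjusted p = 4.0e-04), and its relation to the clock time of collection was not tested. Of 15 heat shock genes, HSPA1B was called lower and 6 passed the adjusted p as lower, with a median log2 change of -0.54.

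Lists of growth and metabolism held few calls. Of 23 p53 target genes, 1 was called, TP53I3, a quinone reductase-like protein that went from 96.4, 94.0 and 124 CPM to 38.5, 37.8 and 43.3 CPM (log2 change -1.39 ± 0.13, adjusted p = 4.0e-04), and 8 passed the adjusted p as lower and 0 as higher. Of 28 MYC and ribosome biogenesis genes 0 were called by edgeR or DESeq2, 0 had an unadjusted p under 0.05 as higher and 8 as lower. Of 32 mitosis genes 0 were called by either tool, with 1 higher and 6 lower at an unadjusted p under 0.05, and of 32 DNA replication genes 0 were called, with 6 higher and 7 lower. Over all tested genes 5996 of 17377 had such a p, and the list counts were not tested against that. CENPF, a kinetochore protein, was at 182, 123 and 462 CPM at 3 h and 223, 102 and 68.1 CPM at 24 h, so that replicates of 1 group differed by more than the groups. Of 26 cholesterol genes, 3 were called higher, SREBF1 among them, and 0 were with the GC and length correction. SREBF1 also lost its call in 6 of the 9 fits that left out 1 library. Of 12 fatty acid synthesis genes 0 were called by edgeR and 1 by DESeq2, with 7 higher and 0 lower at an unadjusted p under 0.05. Of 25 NRF2 target genes GCLC, the catalytic subunit of glutathione synthesis, was called lower, from 210, 227 and 224 CPM to 109, 106 and 98.2 CPM (log2 change -1.08 ± 0.11, adjusted p = 5.9e-04). Of 34 Wnt pathway genes 2 were called higher and 2 lower. The lower calls numbered 0 without SP 3 h replicate 3 or any 1 of the SP 24 h replicates and 1 without SP 3 h replicate 1 or 2, and the higher calls numbered 4 without SP 3 h replicate 2. DKK1, a secreted Wnt antagonist, stood at 316, 226 and 222 CPM in the controls, 112, 80.3 and 95.8 CPM at 3 h and 502, 325 and 381 CPM at 24 h (log2 change between the SP times 2.07 ± 0.21, adjusted p = 5.1e-04), and missed the transient cut because it ended 0.66 above the control on the log2 scale. Of 20 interferon-stimulated genes, 3 were called higher, BST2, IFI6 and ISG15, and 1 lower, RIGI, whose call was lost in 6 of the 9 fits that left out 1 library.

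**Figure D4:**
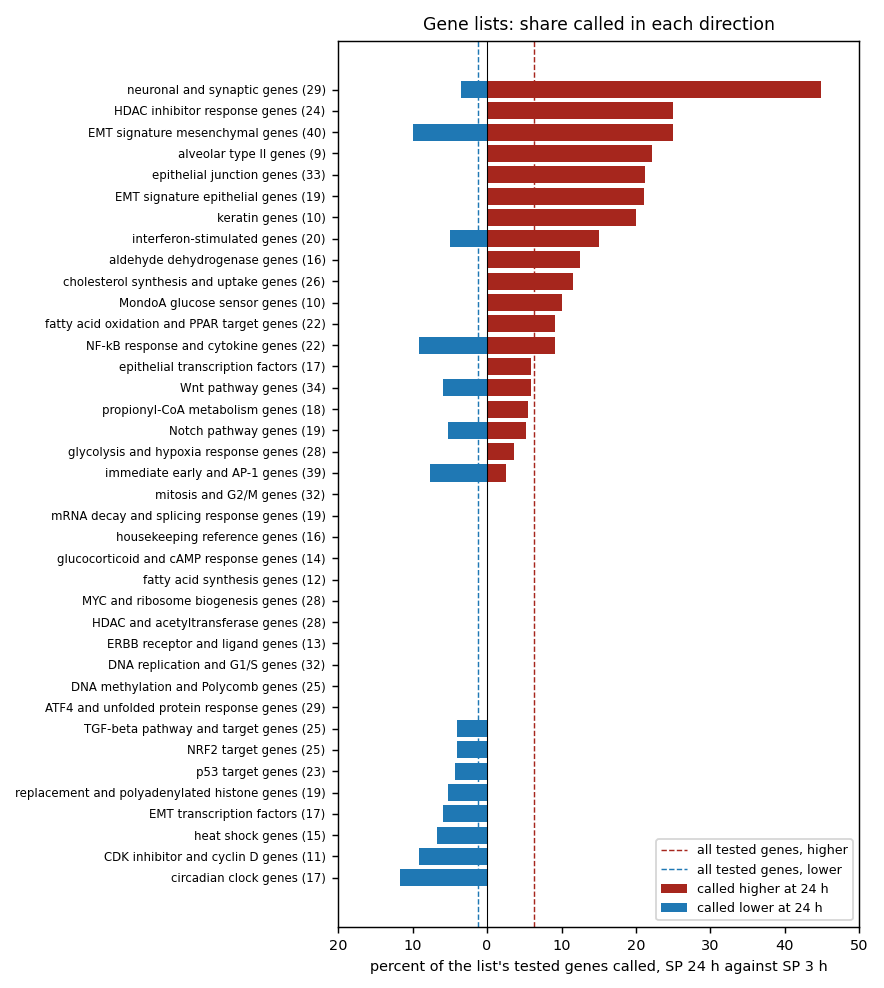
Share of each gene list's tested genes (number in brackets) called higher (right) or lower (left) at SP 24 h than at SP 3 h, for the lists with at least 9 tested genes; dashed lines give the shares of all tested genes, 6.27% higher and 1.28% lower. Neuronal and synaptic genes reached furthest to the right, 13 of 29, and circadian clock genes furthest to the left, 2 of 17.

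The later libraries, which played no part in choosing the classes, showed where these genes stood after 3 and 12 days in SP. Against Control 3 days, 17775 genes were tested. At 3 days 11.3% of them were called higher and 3.81% were called lower. At 12 days the shares were 11.4% and 4.61%. Of 492 secondary rises tested there, 304 (61.8%) were called higher at 3 days and 278 (56.5%) at 12 days, while 3 were called lower at 3 days, PACSIN1, S100P and SLC51B. Of 82 secondary falls, 48 (58.5%) were called lower at 3 days and 44 (53.7%) at 12 days. Of the 96 progressive rises, 92 (95.8%) were called higher at 3 days and 88 (91.7%) at 12 days.

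Most transient genes were not called at 3 days, and neither were most of all tested genes (11.3% called higher, 3.81% lower). Of the 35 transient rises, 6 (17.1%) were called higher at 3 days and 22 lay within 1.5-fold of the control, where 67.8% of all tested genes lay, and their median log2 change there was 0.44. At 12 days 8 of them (22.9%) were called higher and 1 lower. The 6 were DPF3, GPR155, HSPA1B, RGS16, SYT9 and TNFRSF19, some of them named only after their values were seen. DPF3 had a log2 change of 3.02 at 3 days and 3.58 at 12 days. For RGS16 the values were 2.30 and 2.57 and for SYT9 2.05 and 1.21, each against Control 3 days. These genes were called above Control 24 h at 3 h and lay within 1.5-fold of it at 24 h. DPF3 was at the edge of that limit, 0.58 above Control 24 h on the log2 scale. MXD1, TUFT1 and NFKBIE were not called at 3 days, with log2 changes of 0.26, 0.01 and 0.15. Of the 40 transient falls, 4 (10.0%) were called lower and 1 higher at 3 days, with NRDE2 at -1.05, TRPV3 at -2.07 and B3GALT4 at -1.53 among the lower. Most members of both classes still lay on their first side of the control at 3 days. The median log2 change of the transient falls was -0.53, and 5 of the 40 lay above the control. Among transient rises 28 of the 35 lay above it, and the median over all tested genes was -0.02. PRDM10 was at -0.55 and LIF at -0.22 on the log2 scale. H19, the gene with the largest rise between 3 h and 24 h, was 2.56 above its control at 3 days and 2.38 at 12 days. The 2 tables have their own controls, and levels were not compared across them.

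**Figure D5:**
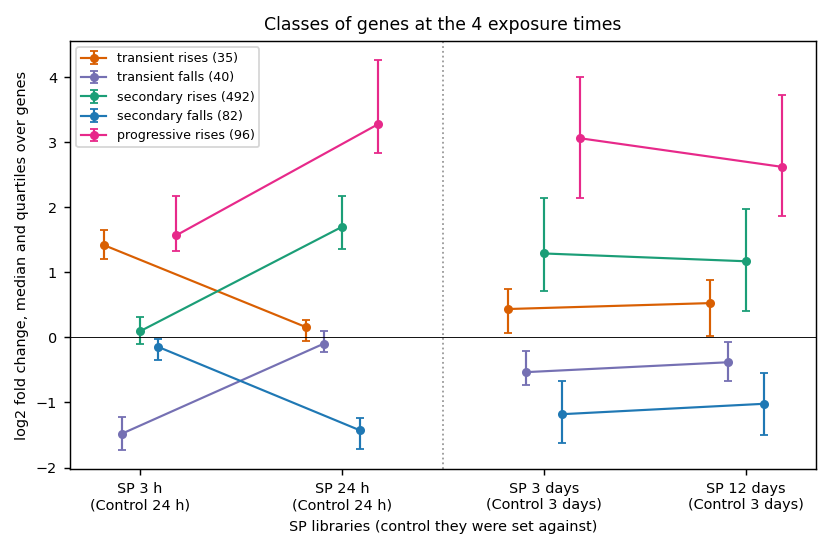
Median (points) and quartiles (bars) over genes of the log2 fold change of each class at SP 3 h and SP 24 h against Control 24 h, which chose the classes, and at SP 3 days and 12 days against Control 3 days, which did not; numbers in brackets are the genes tested in both tables. The median of the 492 secondary rises was 1.29 at 3 days and 1.17 at 12 days. That of the 35 transient rises was 0.44 and 0.53, and that of the 40 transient falls -0.53 and -0.38.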

How the data were processed

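RNA-seq libraries of A549 cells were made with the NEBNext Ultra kit and sequenced in paired ends on a NovaSeq instrument. The deposited values are raw read counts per Ensembl gene, which the authors made with STAR 2.7.9a on GRCh38 and featureCounts. The strand setting and the treatment of reads with several matches are not given in the sources used here. The authors' tests used DESeq2 1.36.0 in R 4.2.1.

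The 9 libraries of the table with SP 3 h, SP 24 h and Control 24 h were fitted together in R 4.3.3 with edgeR 4.0.16 (limma 3.58.1), with TMM factors, filterByExpr at a minimum count of 10 and robust quasi-likelihood, and p-values were adjusted over all 17377 genes tested of 61541 listed. CPM values are TMM-normalized. Calls required adjusted p under 0.05 together with a change of 2-fold or more, since no gene passed the authors' adjusted p under 0.0001 between SP 3 h and the control (4367 had an unadjusted p under 0.05). The table with 3 and 12 days was fitted in the same way on its own. Named genes were the 6 protein-coding genes per class with the largest change among those with a mean normalized count of at least 50 in the higher SP group and no overlap between the SP groups, genes the study names, and per list up to 5 called members, or 2 where none was called. Genes named outside this rule are marked or belong to counts of 5 or fewer, and were chosen after their values were seen. The members and lists were chosen with earlier results of these data known. Positions came from GENCODE on GRCh38, where 61369 of the identifiers were found. The procedure was tested on simulated data. Results of some genes are not reported here.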

Additional observations from a re-analysis of the deposited data

How the results depend on the processing

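The count of 1312 genes called between SP 24 h and SP 3 h became 1422 with DESeq2 1.42.0 (1266 of them shared), 1316 with DESeq2 size factors, 1333 with the GC and length correction, 1506 without the low-count filter and 1418 from the 6 SP libraries alone. It was 3497 with no minimum fold and 5 at an adjusted p under 0.0001, where transient rises, transient falls and secondary falls numbered 0 by edgeR and secondary rises 3. With that stricter p at 3 days, 2 transient rises were called higher, 1 transient fall lower and 31 secondary falls lower. With the GC and length correction transient rises numbered 57 and secondary falls 136. A limit of 2-fold for nearness to the control gave 42 transient rises, 49 transient falls, 664 secondary rises and 94 secondary falls.

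With each library left out in turn, called genes ranged from 879 to 1499, transient rises from 24 to 34, transient falls from 24 to 39, secondary rises from 331 to 505 and secondary falls from 49 to 113. The lowest counts of transient falls (24) and secondary rises (331) came without SP 3 h replicate 3, and secondary falls were 49 without SP 24 h replicate 2 and 55 without SP 24 h replicate 3. Members called at 3 days ranged from 5 to 7, 4 to 6, 300 to 313 and 45 to 49. The log2 change of PCCB ranged from -0.0579 to 0.0353 over these fits and changed sign without SP 3 h replicate 3 (0.0031) and without SP 24 h replicate 2 (0.0353). The causes were not tested.

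The replicate block gave 1281 called genes, 1221 of them shared. Its transient rises, transient falls, secondary rises and secondary falls numbered 32, 36, 504 and 91. Residual correlations of same-numbered libraries were 0.0332, 0.377 and -0.285 between SP 3 h and SP 24 h and -0.0863, -0.0278 and -0.592 between Control 24 h and SP 3 h. Those of different-numbered libraries ranged from -0.51 to 0.427 and from -0.573 to 0.576. With 3 libraries per group these values cannot decide whether the numbers pair these groups. Between Control 24 h and SP 24 h same-numbered libraries gave 0.499, 0.17 and 0.504 and different-numbered ones -0.546 to 0.175. Pairing there is possible from the data, and that comparison enters the classes. Depth limited the genes under 1 CPM at 3 h, 543 of the 1089 called higher at 24 h, whose fold changes rest on few reads.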
